A study of Mus musculus with 12 samples.

Results

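Myeloid cells sorted from the kidneys of op/op mice were compared with the same cells from wild-type (WT) mice. The comparison used 6 of the study's 12 one-colour Agilent mouse arrays, 3 of each genotype, chosen by their sample titles. The other 6 arrays hold bone marrow derived macrophages polarised to M1 with LPS and GM-CSF or to M2 with IL-4 and M-CSF, and are used here only as a reference for a few genes. All kidney samples came from the strain B6C3Fe a/a-Csf1op/J, either wild type or homozygous for the op allele. Every mouse of both groups had received glyoxylate, a precursor of oxalate, at 80 mg/kg for 6 days, so there was no untreated kidney. Cells positive for CD11b and CD11c were collected with autoMACS. The sources used here give no age, sex or number of animals per sample, and no label says that replicates came from separate mice. The p-values therefore reflect only how far these samples vary, which may be technical variation.

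CSF1, also called M-CSF, is the main growth factor of macrophages and of osteoclasts. It acts through the receptor CSF1R, which a second ligand, IL-34, also binds. The op allele is a frameshift mutation of Csf1. Homozygous mice make no functional CSF1 and lack many, though not all, resident macrophages. In the kidney, resident macrophages lie around the tubules, take up debris and crystals, and are known by Adgre1 (F4/80), Cx3cr1 and the complement C1q genes.

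Levels below are log2 processed signals minus the 75th percentile of the array, so 0 is the level that 75% of the probes of that array did not exceed. Differences are op/op minus WT on this log2 scale, with the standard error (SE) of limma's fit to the 6 arrays, and p-values are adjusted over all genes by the Benjamini-Hochberg method. A gene is called where its adjusted p is under 0.05, and "higher" or "lower" without values means called. Where 3 values are given in a row, they belong to replicates 1, 2 and 4 of a group. In such bulk RNA, fewer cells of a type and less RNA per cell cannot be told apart.

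Sorting and activation antigens showed why each gene's probes had to be read one by one. Itgam, which encodes CD11b, had 3 probes that were well above background on all 6 arrays, and the brightest of them carries a long CA repeat. Cd44, the hyaluronan receptor, and Il4ra, the IL-4 receptor alpha chain, also had a repeat in their brightest probe. The sequences are given 5′ to 3′ as in the array files, with capitals marking the repeat. For the repeat probes of Itgam and Il4ra a stretch of 30 bases is shown, and for the others the whole probe of 60 bases.
Itgam, repeat probe at chr7:135261755-135261814 (mm9, + strand): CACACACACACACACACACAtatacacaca
Itgam, probe at chr7:135260275-135260334 (mm9, + strand): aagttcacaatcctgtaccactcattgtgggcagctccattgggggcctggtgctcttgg
Itgam, probe at chr7:135212140-135212199 (mm9, + strand): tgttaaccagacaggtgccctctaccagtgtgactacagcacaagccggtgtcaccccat
Cd44, probe at chr2:102654278-102654337 (mm9, - strand): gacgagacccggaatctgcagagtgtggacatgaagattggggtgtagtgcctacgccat
Il4ra, repeat probe at chr7:132712550-132712609 (mm9, + strand): tgccagcacTGTGTGTGTGTGccacatgga
H2-Ea, only probe, chr17:34481469-34481528 (mm9, - strand): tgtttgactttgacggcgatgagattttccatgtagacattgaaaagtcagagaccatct
The last sequence belongs to an MHC class II gene whose signal differed among the WT arrays, described with the MHC below.

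The Itgam repeat probe lay at 8.21, 7.45 and 7.51 on the WT arrays and at 8.21, 8.08 and 7.80 on the op/op arrays, so the groups overlapped. The probe at chr7:135260275 lay at 2.15, 2.55 and 2.02 in WT and at 1.63, 1.76 and 1.83 in op/op. The probe at chr7:135212140 lay at 0.68, 1.27 and 0.97 in WT and at 0.34, 0.01 and 0.31 in op/op. On both probes without a repeat every WT array stood above every op/op array, with differences of -0.49 ± 0.26 and -0.75 ± 0.26, and neither passed the test when every kept probe was fitted on its own (adjusted p = 0.139 and 0.0525, limma). The repeat probe differed by 0.31 ± 0.29 (adjusted p = 0.397). Itgam therefore had no probe that passed, and its direction depends on the probe.

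Cd44 split more widely. Its repeat probe differed by 0.13 ± 0.25 with overlapping groups (adjusted p = 0.668, limma over all probes). The probe at chr2:102654278 lay at 2.89, 3.35 and 2.30 in WT and at 1.51, 1.63 and 1.51 in op/op. That difference of -1.29 ± 0.30 passed (adjusted p = 0.0227), as did both remaining Cd44 probes at -1.16 ± 0.38 and -0.95 ± 0.30. For Il4ra the repeat probe rose from 5.59, 5.46 and 5.63 in WT to 6.52, 6.40 and 6.25 in op/op. The other Il4ra probe differed by -0.06 ± 0.29, with overlapping groups. The call of Il4ra as higher thus rests on a probe with a repeat, and it ended without any 1 of WT replicate 2 and the 3 op/op arrays, at differences between 0.76 and 0.90.

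The same pattern held across the array. A simple repeat was counted where a unit of 2 to 5 bases ran in tandem over at least 12 bases. Of the kept probes of protein-coding genes, 425 held one, with a median difference of 0.40, and 21001 did not, with a median of -0.39. On 355 of the 425 repeat probes the op/op mean was above the WT mean, against 7934 of the 21001 others. In 171 protein-coding genes the brightest probe held a repeat and another kept probe did not. The repeat probe had a median difference of 0.46 there and the mean of the other probes -0.15, and the repeat probe was the higher of both in 126 genes. Brightness differed as well, with a median level of 4.17 for repeat probes of protein-coding genes and -0.89 for the others. Over 4801 protein-coding genes with several kept probes, the brightest probe had a median difference of -0.21 and the mean of the others -0.53. What part brightness has in the repeat difference was not tested. Between the M2 and M1 arrays the medians were -0.13 for repeat probes and 0.02 for the others. What these probes hybridise to was not tested. Of the genes named by rule, only Itgam, Cd44 and Il4ra were represented by a repeat probe.

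**Figure D1:**
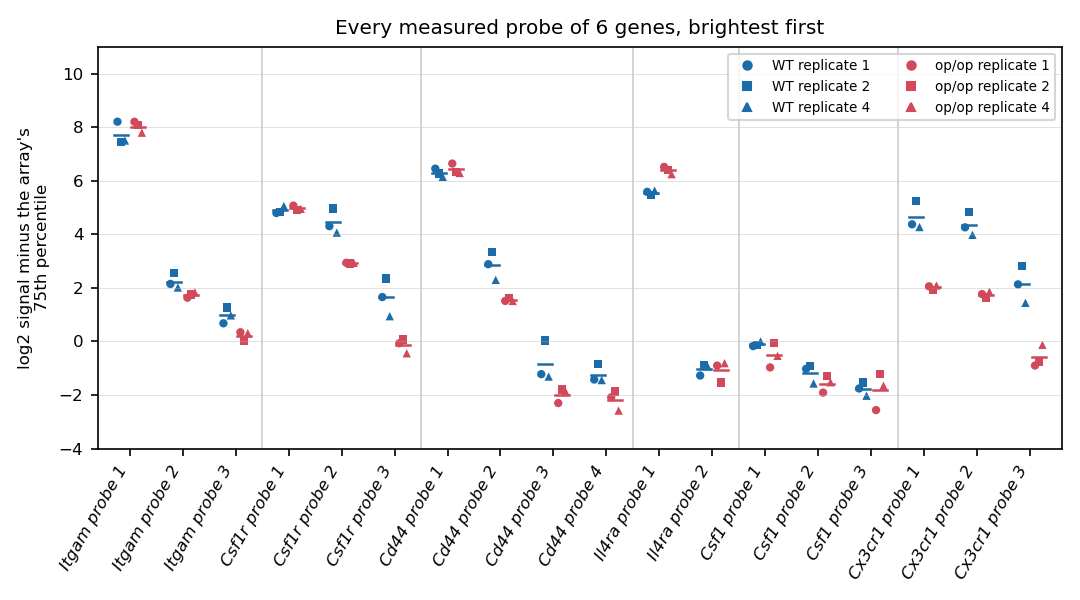
Log2 level above the array's 75th percentile (vertical axis) for every kept probe of Itgam, Csf1r, Cd44, Il4ra, Csf1 and Cx3cr1, brightest probe first, with 1 point per array and the genotype given by colour. The brightest probes of Itgam and Cd44 show overlapping genotypes at differences of 0.31 and 0.13, whereas all 3 Cx3cr1 probes separate them.

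Detection differed by genotype on the 6 arrays. Between 76.1% and 79.3% of probes were well above background on the WT arrays and between 63.1% and 68.8% on the op/op arrays; their number, 3 a group, limits the precision. WT replicate 1 lay alone on its slide and the other 5 kidney samples shared another. WT samples filled row 1 of their slides and op/op samples row 2, so slide row and genotype cannot be told apart. WT replicate 4 was the WT sample nearest to op/op: it correlated with the op/op arrays at 0.934 to 0.964 over all tested genes, against 0.847 to 0.899 for WT replicate 1. Over the 6489 genes called at 2-fold or more it lay a median 35.8% of the way from the mean of WT replicates 1 and 2 to the op/op mean. Itgam, Itgax and Adgre1, markers of the labelled cells, were well above background on all 6 arrays. So were 32403 of 55651 probes, and detection alone therefore does not check the labelled cell type. On the op/op arrays Itgax lay between 0.05 and 0.25 and Adgre1 between 0.07 and 0.47. Kidney epithelium was present too, with Umod, the uromodulin gene of the thick ascending limb, between 3.53 and 6.31 on every array.

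Of 27093 genes tested, 10128 (37.4%) were called, 4893 of them lower in op/op cells (18.1%) and 5235 higher (19.3%). These counts are fragile. Without op/op replicate 1 only 414 genes were called, and without WT replicate 2 only 578; without WT replicate 1, the sample on its own slide, 5313 were called, and without WT replicate 4 12937. Without op/op replicate 2 there were 3933 and without op/op replicate 4 2142. All 10128 genes kept the sign of their difference in each of these 6 fits. For 10008 of them the groups did not overlap, so leaving out 1 array could not change the sign. Only 322 were called in all 6 fits, 179 lower and 143 higher. In what follows, a gene that "kept its call" is among those 322, and leading lists are given with their lowest and highest count when 1 array was left out. Groups without overlap were common: of all 27093 genes, 6978 had every WT array above every op/op array and 8946 the reverse. Among called genes with several kept probes, all probes lay on the same side in 84.3% of 1350 lower and 67.7% of 1786 higher genes. Every gene called higher in the Toll-like receptor, integrin, heat shock, proteasome, osteoclast, monocyte and collagen lists below had probes on opposite sides. A gene below background on all arrays of 1 genotype passed the filter through the other genotype alone, and its fit uses dim values. A call that such a gene kept rests on the same dim values.

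Kinds of genes moved apart, and this sets the scale on which each list is read. The median difference was 0.18 over all genes. It was -0.28 over 15437 protein-coding genes, of which 25.4% were lower and 12.8% higher. By contrast it was 0.67 over the 4137 lincRNA regions of the array design, with 4.96% lower and 35.1% higher. Olfactory receptors, which are smell receptors of the nose, had a median of 0.80, with 35.3% of 482 higher. Vomeronasal receptors had 0.92, with 41.9% of 117 higher. Between M2 and M1 arrays the same classes had medians between -0.09 and 0.00.

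Among protein-coding genes the difference also followed the GC content of the probe. In the GC bin from 15.0% to 36.7%, the lowest of 5, the median was -0.66, with 37.7% of 4312 genes lower and 9.9% higher. In the highest bin (51.7% and above) it was 0.20, with 9.72% of 2789 genes lower and 16.2% higher. The 3 bins in between had medians of -0.47, -0.20 and 0.18. Position was compared in 3388 protein-coding genes with kept probes apart on the genome. The most 3′ kept probe minus the most 5′ one had a median of 0.26 to 0.38 on WT arrays and 0.13 to 0.24 on op/op arrays. How near these probes lie to the transcript ends was not checked. What part of the genotype difference goes with GC content, with RNA integrity or with the kind of gene was not tested. A fit of protein-coding genes alone, each array centred within the 5 bins of probe GC, is given beside the leading lists; that fit was added after seeing the data.

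**Figure D2:**
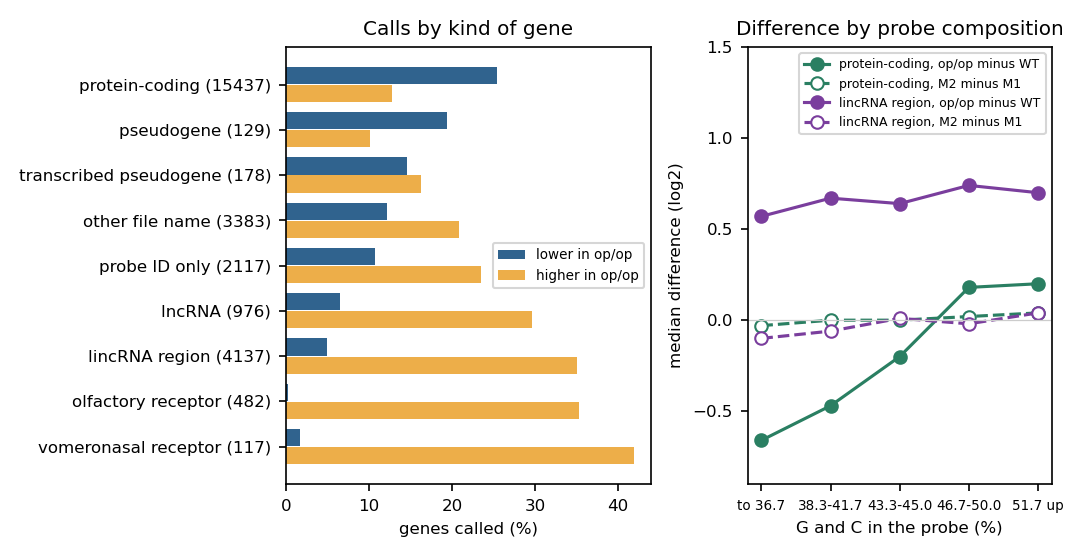
Left, percent of genes called lower and higher in op/op cells by kind of gene, with the number of genes in brackets; right, median log2 difference by bin of probe GC content for protein-coding genes and lincRNA regions, op/op minus WT as solid lines and M2 minus M1 as dashed lines. Protein-coding medians climb from -0.66 to 0.20 for the genotypes and stay between -0.03 and 0.04 for the bone marrow cells.

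Of 12 ligands and receptors of the colony-stimulating factors, only Il34 was called. Il34, the second CSF1R ligand, lay at 1.43, 0.74 and 0.44 in WT and at -0.96, -0.62 and 0.15 in op/op, a difference of -1.35 ± 0.37 (adjusted p = 0.0283, limma). Every WT array was above every op/op array, but the call ended without any 1 of WT replicates 1 and 2 and op/op replicates 1 and 2, at -1.66 to -1.07. Csf1 itself overlapped between genotypes. Its brightest probe lay at -0.17, -0.14 and 0.00 in WT and at -0.97, -0.06 and -0.54 in op/op, a difference of -0.41 ± 0.29 (adjusted p = 0.244), which turned to 0.07 in the GC-centred fit. Since op shifts the reading frame and does not delete the gene, Csf1 signal does not check the genotype labels.

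Csf1r, the receptor, depended on the probe. The brightest lay at 4.80, 4.85 and 5.06 in WT and at 5.07, 4.92 and 4.96 in op/op, with no separation (0.08 ± 0.23, adjusted p = 0.774), and its sign changed with the scaling. Both other Csf1r probes were lower in op/op. One fell from 4.31, 4.96 and 4.07 to 2.94, 2.92 and 2.94, a difference of -1.51 ± 0.29 (adjusted p = 0.0154, limma over all probes). The other fell from 1.66, 2.35 and 0.94 to -0.07, 0.07 and -0.44, a difference of -1.80 ± 0.36 (adjusted p = 0.0173). The mean over the 3 probes gave -1.08.

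The genes that define resident macrophages were lower together. Of 19 macrophage identity genes tested, 14 were lower and none higher, with a median of -1.61 and 17 of the 19 below 0. The count ranged from 2 without op/op replicate 1 to 16, while the median stayed between -1.80 and -1.53. In the GC-centred fit 14 were lower as well, with a median of -1.35. Cx3cr1, the fractalkine receptor, was at 4.38, 5.25 and 4.27 in WT and at 2.06, 1.93 and 2.09 in op/op, a difference of -2.61 ± 0.30 (adjusted p = 0.0049, limma). Its 2 other probes gave -2.61 and -2.73, and it kept its call. Sirpa, the inhibitory receptor that reads CD47, fell from 4.50, 4.56 and 4.33 to 2.96, 2.75 and 2.86 and kept its call at -1.61 ± 0.23. In both genes the op/op arrays lay close together and well below the lowest WT array.

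Adgre1, the F4/80 antigen, spread more within WT, at 2.26, 3.34 and 1.43 against 0.07, 0.11 and 0.47 in op/op (-2.12 ± 0.43). C1qc, a chain of the complement starter C1q that macrophages make, lay at 4.81, 5.43 and 4.05 against 2.48, 2.48 and 2.75 (-2.19 ± 0.35). Trem2, a lipid-sensing receptor, lay at 2.41, 3.65 and 2.60 against 1.10, 0.65 and 0.96 (-1.98 ± 0.35). WT replicate 2 held the highest value of each of these 3 genes. Aif1 (IBA1) differed by -1.52 ± 0.26 and Itgax, which encodes the CD11c of the sort, by -1.61 ± 0.27, from 1.59, 2.19 and 1.51 to 0.05, 0.14 and 0.25. The calls of these 5 genes ended without op/op replicate 1, and those of Adgre1 and Aif1 also without WT replicate 2, at differences between -2.58 and -1.34.

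Transcription factors of the lineage moved the same way. Of 22, 14 were lower and none higher, with a median of -1.17; the count fell to 1 without WT replicate 2, and 10 were lower in the GC-centred fit. Cebpb, a factor of myeloid activation, was even within each genotype, at 4.95, 5.09 and 5.15 in WT and 2.99, 3.21 and 3.08 in op/op. Its difference of -1.97 ± 0.23 (adjusted p = 0.00496, limma) kept its call. Irf5 and Bhlhe40 differed by -1.41 ± 0.30 and -1.43 ± 0.32. The calls of Irf5 and Bhlhe40 ended without WT replicate 2 or op/op replicate 1, and the differences ranged from -1.73 to -1.13 as single arrays were left out.

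**Figure D3:**
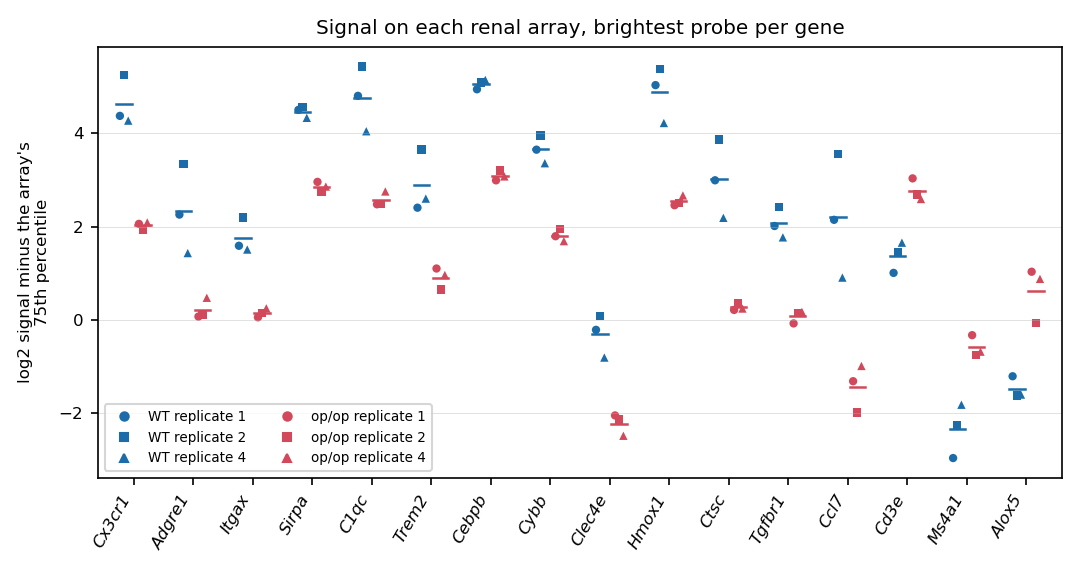
Log2 level above the array's 75th percentile (vertical axis) of 16 named genes on the 3 WT and 3 op/op kidney arrays, 1 point per array. The macrophage, effector and signalling genes lie lower on all op/op arrays, and Cd3e, Ms4a1 and Alox5 lie higher on all of them; WT replicate 2 is often the highest WT point.

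Surface receptors split between lists. Among 8 Fc receptors 4 were lower and 1 higher, with a median of -0.71, and among 16 TREM, DAP12 and Siglec receptors 8 were lower and none higher, with a median of -0.29. C-type lectins had 9 of 15 lower and none higher (median -1.17), and Toll-like receptor genes 11 of 23 lower and 2 higher (median -0.93). Both higher Toll-like receptor genes had probes on opposite sides. Clec4e (Mincle), a receptor for damaged cells and mycobacterial lipid, was at -0.21, 0.09 and -0.81 in WT and at -2.05, -2.14 and -2.49 in op/op and kept its call (-1.91 ± 0.30). Clec7a (Dectin-1), the glucan receptor, differed by -1.71 ± 0.31, Tlr2 by -1.68 ± 0.32 and Ly86, a partner of the Toll-like protein RP105, by -1.57 ± 0.32. The activation lectin Cd69 was at 1.62, 2.01 and 1.23 against -0.12, 0.02 and -0.17 (-1.71 ± 0.27). Fcgr3, an activating Fc receptor, and Fcgr2b, the inhibitory one, were both lower, at -1.74 ± 0.35 and -2.07 ± 0.45. Apart from Clec4e, the calls of these genes ended without op/op replicate 1, and all but Cd69 without WT replicate 2 too, at -2.61 to -1.22.

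Lilrb4a, an inhibitory receptor with 2 probes on the same side, differed by -1.48 ± 0.29. Pilra, another inhibitory receptor, had 4 kept probes that disagreed: 3 were lower, at -1.70 ± 0.34, -1.98 ± 0.32 and -1.11 ± 0.33, and 1 was not called at 0.85 ± 0.36. Of 13 leukocyte integrins, 4 were lower and 1 higher (median -0.61). The beta chain that pairs with CD11b and CD11c, Itgb2, lay at 5.12, 5.65 and 4.25 against 3.74, 3.92 and 3.88, and its call (-1.16 ± 0.35) ended in 5 of the 6 fits with 1 array left out, at -1.53 to -0.83. The calls of Lilrb4a and Pilra ended without WT replicate 2 or op/op replicate 1.

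The phagocyte NADPH oxidase makes superoxide from a membrane core of Cybb and Cyba. Of its 7 genes, 6 were lower, and the median was -1.29 (2 to 7 called with 1 array left out, 6 in the GC-centred fit). All 7 had every WT array above every op/op array, as did 6978 of all 27093 genes tested. Cybb fell from 3.65, 3.96 and 3.36 to 1.79, 1.94 and 1.69 (-1.85 ± 0.26) and Cyba from 5.92, 5.80 and 5.25 to 3.87, 4.12 and 3.75 (-1.74 ± 0.27). Both kept their calls, and Cyba had 2 probes on the same side.

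Chemokine ligands were lower in 17 of 26 and higher in 2, with a median of -1.59 (2 to 16 lower with 1 array left out). Pf4 (CXCL4), a product of platelets and of some resident macrophages, had the widest gap of these: 0.90, 2.59 and -0.69 in WT, and not well above background in op/op. It was at least 20.5-fold lower in op/op, a bound set against the dimmest probes well above background, and it kept its call. Ccl17 lay at -0.02, 1.30 and 1.10 against -1.52, -1.69 and -1.44 (-2.34 ± 0.35) and kept its call. The monocyte attractant Ccl7 was at 2.15, 3.56 and 0.91 against -1.32, -1.99 and -0.99 (-3.64 ± 0.58), and Ccl4 (MIP-1 beta) at 6.76, 7.09 and 6.76 against 5.25, 5.60 and 5.26 (-1.50 ± 0.25). Both of these calls ended without op/op replicate 1, and that of Ccl4 also without WT replicate 2. Over the fits with 1 array left out the difference was -4.29 to -2.96 for Ccl7 and -1.62 to -1.39 for Ccl4. The 2 higher ligands were the B cell attractant Cxcl13 and the thymus chemokine Ccl25, which fall outside the naming rule and were chosen after their values were seen. The receptor Ccr2 differed by -1.53 ± 0.29, among 5 of 16 chemokine receptors that were lower and 1 that was higher. Its call ended without WT replicate 2 or op/op replicate 1.

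Cytokines were divided, with 9 of 24 lower and 6 higher. Il6 lay at -1.37, -0.73 and -1.88 in WT and did not stand well above background in op/op, which makes it at least 4.37-fold lower; it kept its call. Il1a and Lif were also measured only in WT, at least 3.52-fold and 2.18-fold lower, but their calls ended without WT replicate 2, and with a floor on dim signals or another background correction. Il7, the lymphocyte survival factor, went the other way: below background on all WT arrays, it lay at -2.67, -1.84 and -0.43 in op/op, at least 6.92-fold higher, and kept its call. Il18r1 was at -3.63, -3.18 and -3.53 in WT and -2.06, -2.23 and -2.16 in op/op (1.30 ± 0.24), a call that ended without op/op replicate 1. The TNF superfamily had 6 lower and 5 higher of 27, near the background of protein-coding genes in the first direction. Tnfsf9 (4-1BBL) lay at 2.62, 2.62 and 2.07 against 0.83, 0.70 and 0.80 (-1.66 ± 0.26). Cd40lg, the CD40 ligand of activated T cells, was higher by 1.33 ± 0.27 and lost its call without WT replicate 2 or op/op replicate 1.

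Eicosanoid genes were called in both directions. Ptgs2 (COX-2), which starts prostaglandin synthesis, fell from 1.74, 1.75 and 0.89 to -0.26, -0.65 and -1.0 (-2.10 ± 0.32) and kept its call. Alox5, the enzyme that starts leukotriene synthesis, rose from -1.21, -1.63 and -1.60 to 1.03, -0.07 and 0.88, a difference of 2.09 ± 0.33 (adjusted p = 0.0109, limma). No array of one genotype overlapped with the other, but the Alox5 call ended without op/op replicate 1, the highest array. Of the 23 genes of the list, 8 were lower and 2 higher. Among nucleotide receptors and ectonucleotidases 7 of 13 were lower, including P2ry6, the UDP receptor of phagocytosis, at -1.66 ± 0.30 (call lost without WT replicate 2 or op/op replicate 1).

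Signalling feedback and stress genes were lower as groups. Of 20 genes that restrain NF-kB and MAP kinase signalling 12 were lower and none higher (median -1.01), of 24 immediate early genes 16 and none (median -0.92), and of 21 STAT and SOCS genes 12 and 1 (median -0.80). Tnfaip3 (A20), an inhibitor of NF-kB, lay at 3.27, 3.96 and 2.38 against 0.94, 1.30 and 0.91 (-2.15 ± 0.38). Zc3h12a, a nuclease that degrades cytokine mRNA, differed by -1.61 ± 0.26, and the phosphatase Dusp2 by -1.81 ± 0.29. Fosl2, Cish and Stat2 differed by -1.25 ± 0.27, -1.34 ± 0.27 and -1.18 ± 0.26. Only Dusp2 kept its call; the other 5 lost it without op/op replicate 1, at -2.57 to -1.05 over the fits with 1 array left out.

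Heat shock genes were the strongest stress list, with 13 of 18 lower, 1 higher and a median of -1.29 (3 to 15 lower with 1 array left out). Hsph1, a co-chaperone of HSP70, fell from 5.74, 5.18 and 5.05 to 2.26, 2.83 and 3.45 (-2.48 ± 0.35). Dnajb1 (HSP40) fell from 6.39, 5.94 and 5.54 to 3.03, 3.75 and 4.30 (-2.27 ± 0.37). Both kept their calls, and in both WT replicate 1 was the highest array and op/op replicate 1 the lowest.

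Antigen presentation and interferon lists had more genes lower than higher. Of 25 MHC class I and peptide loading genes, 12 were lower and 2 higher (median -0.95). H2-D1, a classical class I gene, fell from 6.07, 6.34 and 4.37 to 1.26, 1.80 and 1.35 (-4.12 ± 0.47, 17.4-fold, adjusted p = 0.00489, limma). H2-Q5 fell from 2.44, 3.07 and 1.21 to -2.33, -2.27 and -2.81 (-4.71 ± 0.44, 26.2-fold) and H2-M3, which presents formylated peptides, from 1.53, 1.81 and 0.38 to -1.20, -1.33 and -1.24 (-2.50 ± 0.36). These 3 kept their calls. H2-K1 differed far less, from 6.28, 6.30 and 5.26 to 4.52, 4.80 and 4.35 (-1.39 ± 0.33), and lost its call without WT replicate 2, op/op replicate 1 or op/op replicate 4. On all 4 genes WT replicate 4 was the lowest WT array. Class I genes are near-identical copies that differ between mouse haplotypes, so single-gene values from 60-base probes are uncertain.

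MHC class II presentation genes had 7 of 14 lower and 1 higher (median -1.04). H2-Aa fell from 6.24, 6.48 and 5.21 to 3.69, 3.83 and 3.38 (-2.34 ± 0.35) and kept its call, and H2-Eb1 differed by -1.67 ± 0.28, a call lost without WT replicate 2 or op/op replicate 1. The 1 higher gene was H2-Ea, the alpha chain of class II E, whose probe is printed above. WT replicates 1 and 2 held it at -6.13 and -6.65, not well above background. WT replicate 4 held it at 1.76, and the op/op samples at 1.78, 2.06 and 2.26. WT replicate 4 thus stood with the op/op samples and not with the other WT samples. H2-Ea was also dim on the M1 arrays, at -6.84 to -6.92, and on the M2 arrays, at -5.97 to -4.29. The fitted difference of 5.70 ± 1.80 (adjusted p = 0.0384) averages these unlike WT arrays, is no bound, and was called in 1 of the 6 fits with an array left out, that without WT replicate 4 (8.42). Mouse MHC haplotypes differ in H2-Ea: that of C57BL/6 does not express it, and others do. The haplotype of these samples was not tested.

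In the MHC region as a whole, from 34133055 to 37618042 on chromosome 17 (mm9), 188 genes were tested, 42.6% were called and 33.0% differed at least 2-fold, against 37.4% and 27.7% of all genes. Of them 4 differed at least 8-fold, among 68 such genes in all. Within 10 Mb of Csf1, the stretch around the op locus, 207 genes were tested, 36.7% were called, 26.6% differed at least 2-fold and none 8-fold.

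**Figure D4:**
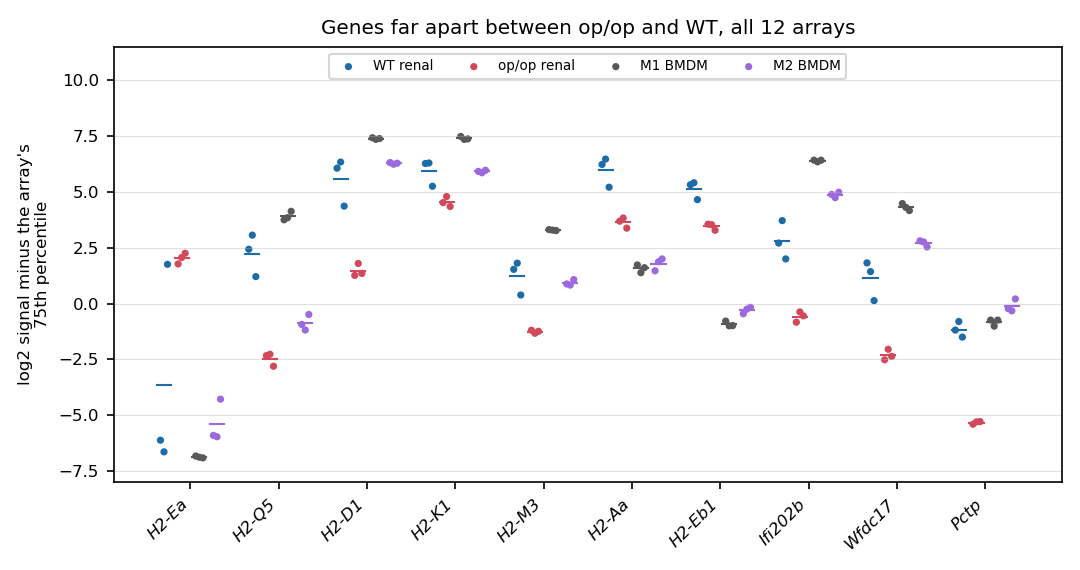
Log2 level above the array's 75th percentile (vertical axis) of 10 genes on all 12 arrays, grouped as WT, op/op, M1 and M2, 1 point per array. H2-Ea is near 2 on the op/op arrays and on WT replicate 4, and at -4.29 or below on every other array, while H2-D1 and H2-Q5 lie lower on all op/op arrays than on any WT array.

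Interferon-stimulated genes were lower in 15 of 30 and higher in 1 (median -0.96). The antiviral synthetases Oas2 and Oasl2 differed by -1.91 ± 0.31 and -1.82 ± 0.31. Both calls ended without op/op replicate 1, and that of Oasl2 also without WT replicate 2. Of 6 genes of the Ifi200 family and Aim2, DNA sensors and their relatives, 4 were lower and all 6 were below 0 (median -1.40). Ifi202b led them, falling from 2.71, 3.72 and 2.0 to -0.84, -0.38 and -0.55 (-3.40 ± 0.41, 10.5-fold), with -3.44 ± 0.39 on its second probe, and it kept its call. Ifi204 and Aim2 differed by -1.66 ± 0.35 and -1.20 ± 0.27, calls that ended without WT replicate 2 or op/op replicate 1, and for Aim2 also without op/op replicate 2 and in the GC-centred fit (-0.72). Members of this family are close copies that vary between strains, and their values are uncertain in the same way.

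Costimulatory and checkpoint genes were lower in 9 of 17 and higher in 2 (median -0.90). Cd86 lay at 0.66, 1.31 and 0.38 against -1.05, -1.11 and -0.84 (-1.79 ± 0.29), and Cd274 (PD-L1) differed by -1.57 ± 0.30. Complement genes had 9 of 24 lower and 1 higher. Of these Cfb, a component of the alternative pathway, lay at 1.86, 2.41 and 0.64 against 0.03, -0.55 and -0.62 (-2.02 ± 0.43), and C2 differed by -1.55 ± 0.31. All 4 lost their calls without op/op replicate 1, and Cd274, C2 and Cfb also without WT replicate 2, at -2.52 to -1.30.

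Lysosomal genes were the most completely lower of the large lists. Of 31 genes for acidification and enzymes 25 were lower, none was higher and 30 were below 0, with a median of -1.29. The count ranged from 2 without op/op replicate 1 to 29, the median from -1.57 to -1.05, and the GC-centred fit gave 20 lower and a median of -1.05. Ctsc, the protease that activates granule enzymes, fell from 2.99, 3.87 and 2.19 to 0.21, 0.35 and 0.24 (-2.75 ± 0.39) with 2 probes on the same side. Neu1, the lysosomal sialidase, fell from 2.03, 1.77 and 1.34 to -0.21, -0.06 and -0.17 (-1.86 ± 0.26). Both kept their calls. Lamp2, a membrane protein of lysosomes, differed by -1.76 ± 0.29 and lost its call without op/op replicate 1, with a range of -1.99 to -1.50 as single arrays were left out.

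Lipid, iron and redox genes followed. Cholesterol synthesis genes were lower in 11 of 22 and higher in 1 (median -0.93). Efflux and lipoprotein genes were lower in 7 of 20 and higher in 1. The efflux pumps Abca1 and Abcg1 differed by -2.13 ± 0.51 and -1.85 ± 0.37. Heme and iron genes were lower in 10 of 19 and higher in 1. Hmox1, which breaks down heme, fell from 5.04, 5.38 and 4.22 to 2.46, 2.51 and 2.67 (-2.33 ± 0.32, 2 probes on the same side) and kept its call, and the phagosomal metal pump Slc11a1 differed by -1.88 ± 0.35. Antioxidant genes were lower in 16 of 25 and higher in none (median -0.98; none lower without op/op replicate 1), with Nfe2l2 (NRF2), the factor that drives many of them, at -1.93 ± 0.32 and Sod3 at -1.82 ± 0.35. Apart from Hmox1, the calls named here ended without op/op replicate 1, and those of Abca1, Abcg1, Slc11a1 and Sod3 also without WT replicate 2, with differences of -2.80 to -1.51 as single arrays were left out.

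Metabolic lists had medians below 0. All 33 respiratory chain genes were below 0, with a median of -0.84 and a range of -1.17 to -0.39, and 14 were called. No gene of the chain was called without WT replicate 2, and the GC-centred fit called 6. Glycolysis and pentose phosphate genes were lower in 12 of 26 (46.2%), citric acid cycle genes in 7 of 22 (31.8%), fatty acid oxidation genes in 9 of 24 (37.5%) and proteasome genes in 18 of 31 (58.1%), against 25.4% of protein-coding genes. Among the last 1 was higher, and the medians lay between -0.94 and -0.79. Each of these lists had no gene called lower in at least 1 of the 6 fits with an array left out. Examples were Hk2, the first enzyme of glycolysis (-2.33 ± 0.40), Pgd (-1.76 ± 0.33), Cox5a (-1.17 ± 0.27) and Psma1 (-1.29 ± 0.27). Cell cycle and replication genes were lower in 20 of 36 and higher in 5 (median -0.88). Pcna, the replication clamp, fell from 2.49, 2.71 and 2.12 to 0.70, 1.03 and 0.59 (-1.67 ± 0.27). Mcm2 was measured only in WT, at least 2.22-fold lower against the dimmest probes well above background. With a higher floor on dim signals Mcm2 differed less and lost its call. All calls named in this paragraph ended without op/op replicate 1, at -2.66 to -1.05 over the fits with 1 array left out, and most also without WT replicate 2.

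The TGF-beta and matrix lists moved less. TGF-beta pathway genes were lower in 8 of 28 and higher in 2 (median -0.36), close to the 25.4% background, and collagen and matrix genes were lower in 4 of 27 and higher in 1. Tgfbr1, the type I receptor, fell from 2.01, 2.42 and 1.77 to -0.08, 0.14 and 0.17 (-1.99 ± 0.26), with 4 probes on the same side, and kept its call. Its effector Smad2 differed by -1.58 ± 0.25 and Fn1 (fibronectin) by -2.30 ± 0.37, from 3.50, 2.28 and 3.39 to 0.74, 1.15 and 0.39; both calls ended without op/op replicate 1. Of 19 genes of tubular injury and crystal binding 7 were lower (36.8%) and none higher, with a median of -0.80. Vcam1 lay at 1.42, 1.73 and -0.76 against -2.14, -2.20 and -1.44 (-2.72 ± 0.58; call lost without WT replicate 2 or op/op replicate 1). Spp1 (osteopontin), which binds calcium crystals, lay at 1.21, 2.50 and 0.08 against -1.38, 0.00 and -0.04, and its call (-1.73 ± 0.59, adjusted p = 0.0462) ended in 5 of the 6 fits with 1 array left out, at -2.33 to -1.11. Cdkn1a (p21), an arrest gene, had 3 probes that disagreed, at -1.88 ± 0.39 (called), -0.24 ± 0.38 and 0.47 ± 0.34. Osteoclast genes were lower in 4 of 15 and higher in 1, led by Acp5 (TRAP) at -2.48 ± 0.54, which lost its call without op/op replicate 1 and lay at -3.02 to -1.79 as single arrays were left out.

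Other cell types in the sorted material differed between genotypes as well. Of the proximal tubule markers 17 of 22 were lower, all 22 were below 0, and the median was -1.86 (7 to 16 called with 1 array left out; 14 in the GC-centred fit). The median of these genes, each centred on its own mean over the 6 arrays, was 1.59, 0.65 and 0.59 on the WT arrays and -0.69, -0.44 and -1.50 on the op/op arrays. For macrophage identity genes the same quantity was 0.84, 1.34 and 0.15 in WT and -0.79, -0.88 and -0.79 in op/op. The highest array was thus WT replicate 1 for tubule genes and WT replicate 2 for macrophage genes, and the op/op arrays were lowest for both. Slc13a1, the tubular sulphate transporter, was at -0.43, -0.34 and -1.33 in WT and not well above background in op/op, at least 6.74-fold lower. Slc27a2, Slc13a3 and Gatm fell by 2.79, 2.29 and 1.83 on the log2 scale. These 4 genes kept their calls. What part the tubule RNA has in other lists, metabolism included, was not tested.

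Other nephron segments were counted in the same way. Loop of Henle and distal tubule genes had a median of -0.85, and of 13 none was lower and 1 was higher. That count rests on op/op replicate 2, without which 6 were lower; their centred median was 0.71 on that array against -0.96 and -0.93 on the other op/op arrays. Umod lay at 6.31, 5.79 and 5.0 against 3.53, 5.55 and 3.69, with overlap (adjusted p = 0.0583, limma). Collecting duct genes were higher in 5 of 13 (38.5%) and lower in none, with a median of 0.48. On these arrays 12.8% of protein-coding genes and 35.3% of olfactory receptors were higher, the latter with a median of 0.80. The 5 genes were Aqp2, Aqp3, Aqp4, Foxi1 and, chosen after its value was seen, Scnn1g. Aqp2, the vasopressin-regulated water channel, lay at 0.70, 0.72 and 0.34 against 1.39, 2.08 and 1.45 (1.05 ± 0.28), and Aqp3 differed by 1.24 ± 0.32. The calls of Aqp2, Aqp3, Aqp4 and Foxi1 ended without any 1 of WT replicate 2, op/op replicate 1 and op/op replicate 2. Aqp2 and Aqp4 also lost theirs without op/op replicate 4, and Foxi1 was called in only 1 of the 6 fits. Urothelial genes were higher in 2 of 7 (28.6%), among them Upk2 at 1.44 ± 0.27 (call lost without WT replicate 2 or op/op replicate 1). Endothelial genes were higher in 1 of 15 (6.67%), Kdr (0.71 ± 0.24), whose call ended in 5 of the 6 fits.

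Lymphocyte markers were higher where they were called, except for 1. T cell genes were higher in 4 of 9 (median 0.83), B and plasma cell genes in 5 of 14 (median 0.74), and NK cell genes in 3 of 9 (median 0.71), against 12.8% of protein-coding genes. These medians are near the 0.80 of olfactory receptors on the same arrays. Cd3e, a chain of the T cell receptor complex, was at 1.01, 1.46 and 1.66 in WT and at 3.04, 2.69 and 2.59 in op/op (1.40 ± 0.27). The other T cell genes were Cd4 (1.33 ± 0.41), Lck (1.32 ± 0.37) and Zap70 (0.81 ± 0.27). In these 4 genes WT replicate 1 was lowest and WT replicate 4 the highest WT array; Lck, for example, lay at 1.87, 2.77 and 3.38 against 4.23, 3.84 and 3.92. All 4 calls ended without WT replicate 2 or op/op replicate 1. Those of Cd4, Lck and Zap70 also ended without WT replicate 1, the sample on its own slide, at 0.89, 0.92 and 0.65. Cd4 and Lck were called in only 1 of the 6 fits with 1 array left out.

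Ms4a1 (CD20), the B cell antigen, lay at -2.97, -2.27 and -1.82 against -0.33, -0.75 and -0.68 (1.76 ± 0.32). Pax5, the B lineage factor, was higher by 0.98 ± 0.26, as were Cd22 and Fcer2a, both chosen after their values were seen. The count of 5 also holds Cd79a, whose probes disagree. Its brighter probe differed by 1.06 ± 0.30 and was called, but the file places it on chromosome 12, away from the gene. The Cd79a probe on chromosome 7 differed by 0.27 ± 0.29 (adjusted p = 0.453, limma over all probes) and did not pass. Against these, Jchain, the joining chain of plasma cell antibodies, was lower, from 0.35, -0.04 and -0.32 to -1.02, -2.73 and -3.51 (-2.42 ± 0.55), and lost its call without WT replicate 2. The NK cell genes were Nkg7, Prf1 and Klre1, at 1.24 ± 0.38, 0.81 ± 0.25 and 0.93 ± 0.30. Apart from Jchain, the calls of the B and NK cell genes given here with values ended without WT replicate 2 or op/op replicate 1. Klre1 was called in only 1 of the 6 fits with 1 array left out, and Cd79a in 2.

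Among other blood cells, neutrophil and progenitor granule genes were higher in 4 of 15 (26.7%) and lower in none, with a median of 0.27. On the same arrays 12.8% of protein-coding genes and 35.3% of olfactory receptors were higher. The 4 were Ngp (1.74 ± 0.40), Mpo (1.61 ± 0.46), Elane (1.27 ± 0.40) and Ctsg (0.76 ± 0.26). Their calls ended without WT replicate 2 or op/op replicate 1. Mpo also lost its call without WT replicate 1. Elane and Ctsg were called in only 1 of the 6 fits with 1 array left out. Monocyte genes were lower in 5 of 12 and higher in 1 (median -0.69). Dendritic cell genes were lower in 2 of 14 and higher in 1, with a median of 0.05. Platelet genes went both ways, with 2 of 10 lower and 3 higher; the lower pair was Pf4 and Thbs1, which fell from 3.14, 2.90 and 1.61 to -0.38, 0.01 and -0.87 (-2.96 ± 0.42) and kept its call. Fibroblast and mural genes were lower in 5 of 14 and higher in 2, with the smooth muscle genes Acta2 and Myh11 at -1.66 ± 0.35 and -1.49 ± 0.29, calls that ended without op/op replicate 1.

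**Figure D5:**
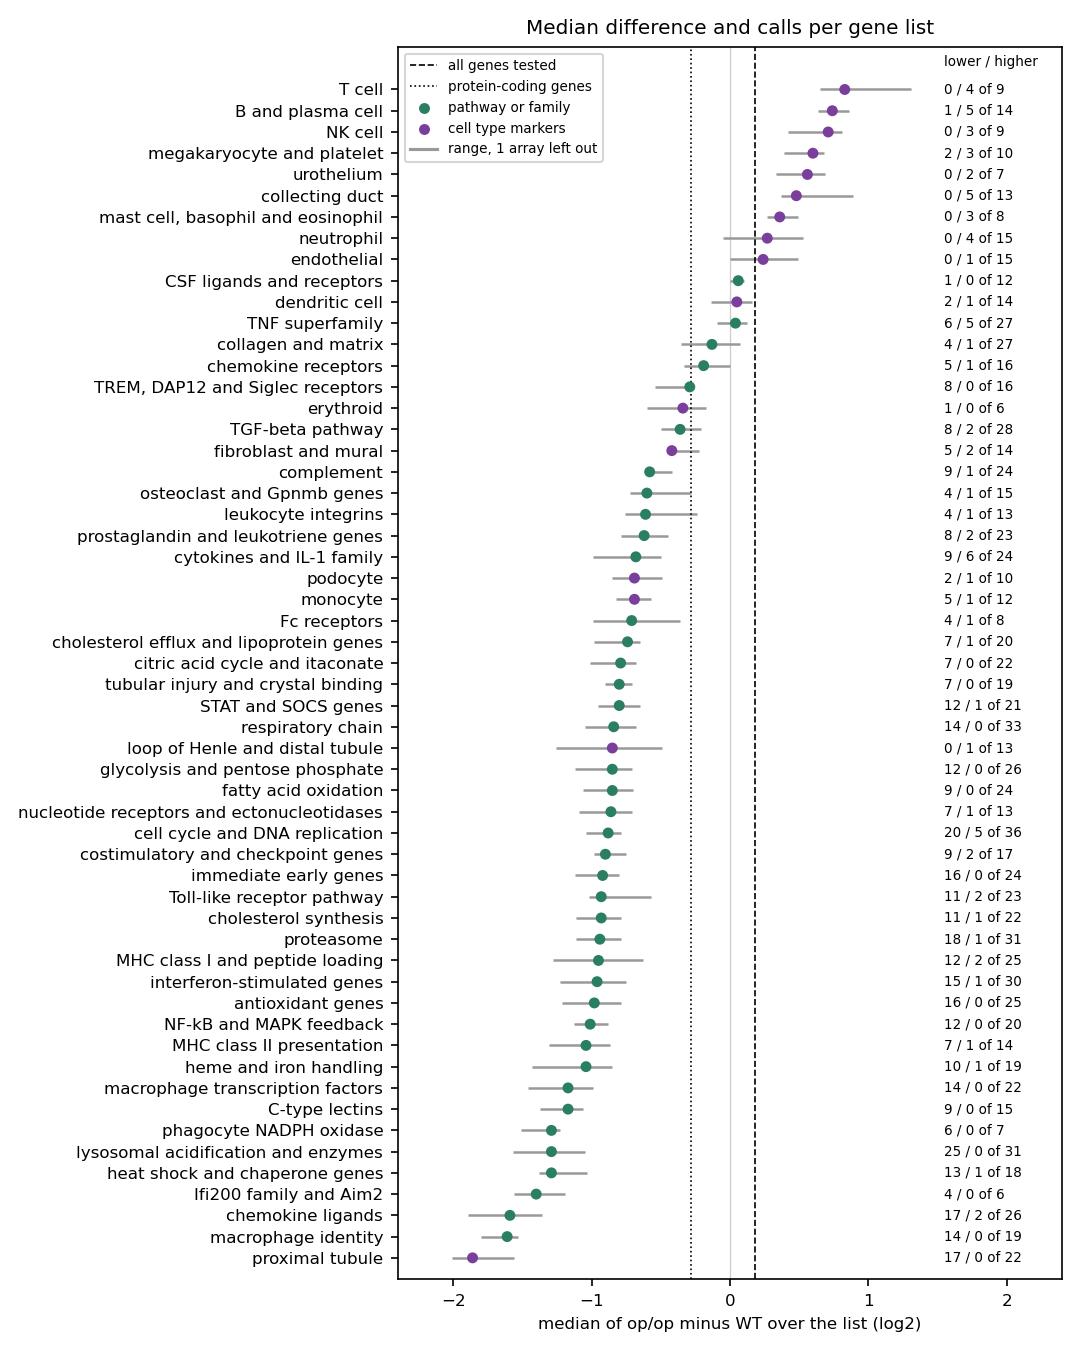
Median log2 difference, op/op minus WT, over the tested genes of each list with at least 5 of them (points), with the range of the median when 1 array is left out (grey lines) and the number of genes lower, higher and tested at the right; the dashed line is the median of all genes (0.18) and the dotted line that of protein-coding genes (-0.28). Proximal tubule (-1.86), macrophage identity (-1.61) and chemokine ligands (-1.59) lie lowest of these lists and T cell markers (0.83) highest.

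Of the Y-linked genes, Ddx3y and Eif2s3y were lower in op/op, and Kdm5d was called lower but turned to 0.64 with a floor on dim signals. Eif2s3y lay at -0.36, -0.70 and -0.75 in WT and -3.13, -2.37 and -2.29 in op/op (-1.99 ± 0.30) and kept its call. Ddx3y lay at 0.47, -0.03 and -0.54 against -1.65, -1.27 and -1.38, well above background on all 6 arrays, and lost its call without WT replicate 2 or op/op replicate 1. Kdm5d was not well above background in op/op, and at least 1.04-fold lower. No label states the sex of these mice, and its part was not tested.

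Outside the lists, Pctp had the smallest p of the named lower genes. It encodes a phosphatidylcholine transfer protein and lay at -1.19, -0.81 and -1.50 in WT and below background in op/op, at -5.41, -5.30 and -5.29. Pctp was at least 4.88-fold lower. Its fitted difference of -4.17 ± 0.26 (adjusted p = 0.000882, limma) uses op/op values below background, so neither its size nor its small SE measures expression in op/op. It passed the filter through WT alone. Wfdc17, a small secreted protein of myeloid cells, fell from 1.82, 1.43 and 0.13 to -2.52, -2.05 and -2.37 (-3.44 ± 0.41). Slc6a20b, a kidney amino acid transporter, and Pdzd3, an epithelial scaffold protein, were below background in op/op, at least 7.49-fold and 3.2-fold lower. Pdzd3 differed less and lost its call with a floor on dim signals. These 4 genes kept their calls, and in each the op/op arrays lay below every WT array.

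The named genes with the largest increases were mostly dim. Tectb, known from the tectorial membrane of the inner ear, lay at -4.03, -3.36 and -3.59 against 0.15, 0.11 and 0.89 (4.05 ± 0.31, adjusted p = 0.000951, limma), and was well above background on 2 of the 3 WT arrays. Frzb, a secreted WNT antagonist, was at least 9.35-fold higher, Myh3, an embryonic muscle myosin, at least 6.31-fold, and Cd96, a receptor of T and NK cells, at least 5.05-fold, each below background on all 3 WT arrays. Klrc3, an NK receptor gene, and Hoxc11 rose by 3.60 ± 0.47 and 3.55 ± 0.39, and were well above background on only 1 and 2 of the 3 WT arrays. All 6 kept their calls. Frzb, Myh3 and Cd96 passed the filter through op/op alone, however, and their fits use WT values below background. On the same arrays the medians of whole classes were 0.67 for lincRNA regions and 0.80 for olfactory receptors, as given above.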

How the data were processed

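Per the labels' protocols, RNeasy Micro RNA was amplified (Ovation PicoSL WTA System V2) and carried Cy3. Agilent Feature Extraction 10.7.3.1, per the submitters' processing notes, turned scans into spots. The deposited intensity values used here are its processed signals, background-subtracted and detrended within the array per the file headers, which name mm9. The deposited log2 value table equals these signals after scaling every array to its 75th percentile and was an alternative.

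Control spots and outlier flags were left out, and spots of a probe averaged. Of 55651 probes, 40648 were well above background on all 3 arrays of 1 group, and the brightest per gene was used. Gene names came from accessions (27582 probes), symbols (3489) or synonyms (392) matched to RefSeq, and otherwise from the file (24188). limma 3.58.1 in R 4.3.3 fitted the 6 arrays, tested on simulated data first; the rest used matplotlib 3.10.9, numpy 2.4.6, pandas 2.3.3 and Python 3.11.15. Named genes were the 12 highest and 12 lowest called genes with proper names, up to 4 of smallest p in each of 57 lists, and a fixed set; exceptions are marked in the text. Some genes the rule names, and 1 probe sequence, are not reported here. The members and lists were chosen with earlier results of these data known. Bounds set the bright group's mean against the higher, per array, of the dim probe and the dimmest probe well above background. They hold only against that level, and a higher floor can give a smaller difference. Alternatives were each array left out, background correction, scaling, filter, floor, probe rule, all 12 arrays, trend, weights, slide and replicate block; 2 more were chosen after the data had been seen.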

Additional observations from a re-analysis of the deposited data

How the results depend on the processing

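Over 23 alternatives, 129 of the 131 called genes named in the text and 48 of 57 list medians kept 1 sign. Leaving out 1 array could not change the sign of a gene whose groups did not overlap. The counts depend on single arrays: leaving out 1 array gave 414 to 12937 called genes, 166 to 7048 higher, 248 to 5889 lower and 414 to 9860 called at 2-fold or more, lowest without op/op replicate 1 and highest without WT replicate 4. Of the 131 named calls, 60 held without WT replicate 2, 43 without op/op replicate 1, 114 without WT replicate 1, 130 without WT replicate 4, 105 without op/op replicate 2 and 105 without op/op replicate 4. With slide as a term 5313 genes were called, 2715 higher, 2598 lower and 3917 at 2-fold or more, which equals leaving out WT replicate 1, alone on its slide. All 12 arrays in the fit gave 16166 (8545 higher, 7621 lower) and array weights 16981 (9506 and 7475). A floor on dim signals gave 8136 higher, and normexp background correction 2859 at 2-fold or more. Of the alternatives chosen after the data had been seen, protein-coding genes centred within probe GC bins gave 4792 (2638 higher, 2154 lower, 3251 at 2-fold or more), with fewer genes tested. Leaving out probes with a simple repeat changed no count by 1.5 times.

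The share of calls that were higher was 51.7% in the main setting, 46.6% under quantile normalization, 47.5% under cyclic loess and 59.8% under normexp, and the median of all genes ranged from 0.08 to 0.22. The genotype groups share replicate numbers, and the deviations of samples with the same number correlated at -0.179, 0.075 and -0.065. Samples with unlike numbers correlated at -0.306 to 0.314. These correlations show no pairing by number, but with so few arrays they cannot exclude one. A replicate block gave 4146 calls (1744 higher, 2402 lower, 4135 at 2-fold or more), and 112 of the 131 named calls held.

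Csf1 turned to 0.07 in the GC-centred fit. Csf1r turned to -0.01 under normexp, -0.01 under quantile normalization, -0.07 under cyclic loess and -1.08 as the mean of its probes. Itgam turned to -0.02, -0.01 and -0.31 under quantile normalization, cyclic loess and the mean of probes, and to -0.50 without its repeat probe. Cd44 turned to -0.17, -0.10 and -0.82 under the same 3 settings and to -1.29 without its repeat probe, and Il4ra to -0.06 without its repeat probe. Kdm5d turned to 0.64 with the floor. The cause was not tested except for the probe choices, where the probe itself changed. Lif, Il1a, Mcm2 and Pdzd3 lost their calls with the floor, at -0.27, -0.96, -0.29 and -0.82. These differences are smaller than the bounds given above, which hold only against the dimmest probes well above background.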
